A study of Mus musculus with 4 samples.

Results

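RYBP occupancy was read at the start sites of 43 germ cell and meiosis genes, a list of known or likely targets of the Polycomb complex PRC1.6, out of 22219 protein-coding genes of the mouse annotation. The rule for the list names genes by function and uses no measured value, though the genes were chosen with earlier results of these data known. RYBP-bound chromatin was precipitated and sequenced (ChIP-seq) from wild-type FLK1+ mesoderm, a progenitor of blood and vessels. The cells were isolated on a magnetic column from embryoid bodies, the clusters that mouse embryonic stem (ES) cells form as they differentiate, and their strain is given as C57Bl/6 X Sv129. The labels place the cells at day 3.75, and the methods of the study at a slightly later day. There were 2 RYBP ChIP replicates, precipitated with an antibody against DEDAF (another name of RYBP), and 2 input samples, whose values were not analysed here. All samples belong to a single condition, so that no comparison between conditions exists, and the ES cells were of a single wild-type line. The peak lists hold no expression values, so the labelled cell type could not be checked against its markers.

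RYBP is a subunit of non-canonical PRC1 complexes, which ubiquitinate histone H2A. In the variant PRC1.6 it joins PCGF6, L3MBTL2 and the DNA-binding factors E2F6, MGA and MAX, and this complex is known for holding germ cell genes silent in ES cells. Many of these genes have promoters of intermediate CpG density that are DNA-methylated in somatic cells. Germ cell genes serve 3 broad tasks covered by the list. They control RNA in germ cells, they make piRNAs, the small RNAs that silence transposons, and they carry out meiosis, in which homologous chromosomes are cut, recombined and joined by the synaptonemal complex.

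A gene was counted as occupied when a region of the authors' merged list overlapped 2.5 kb on either side of any of its annotated starts. By that measure 20 of the 43 genes were occupied, or 46.5%. Over all protein-coding genes the share was 53.4%, so before CpG density is considered the list lay near the background. Peaks of both replicates were present at 17 of the 43 genes (39.5%), against 37.5% of all genes. A further 1 gene had a peak in replicate 1 alone, against 2.89% of all genes, and 2 genes had one in replicate 2 alone, against 13.0%. The other 23 had none. Replicate 1 had a peak at 18 of the 43 genes, against 40.4% of all genes, and replicate 2 at 19, against 50.5%.

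The genes divided unevenly by role. All 7 genes of meiotic recombination were occupied, whereas the share was 5 of 15 in the piRNA pathway, 4 of 10 for the chromosome axis and synapsis, 2 of 5 for RNA regulators of germ cells, and 2 of 6 for meiotic entry and other germ cell genes. Had each gene been occupied as often as the other protein-coding genes of like start-site CpG density, 5.16 of the recombination genes, 9.68 of the piRNA genes, 7.20 of the axis genes, 2.73 of the RNA regulators and 4.14 of the entry genes would have been. For peaks in both replicates the counts were 6 recombination genes (against 3.32 at like density), 4 piRNA genes (6.22) and 4 axis genes (4.62). They were 2 for RNA regulators (1.82) and 1 for entry genes (2.62), beside a share of 37.5% over all genes. These are descriptions of small groups and were not tested.

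**Figure D1:**
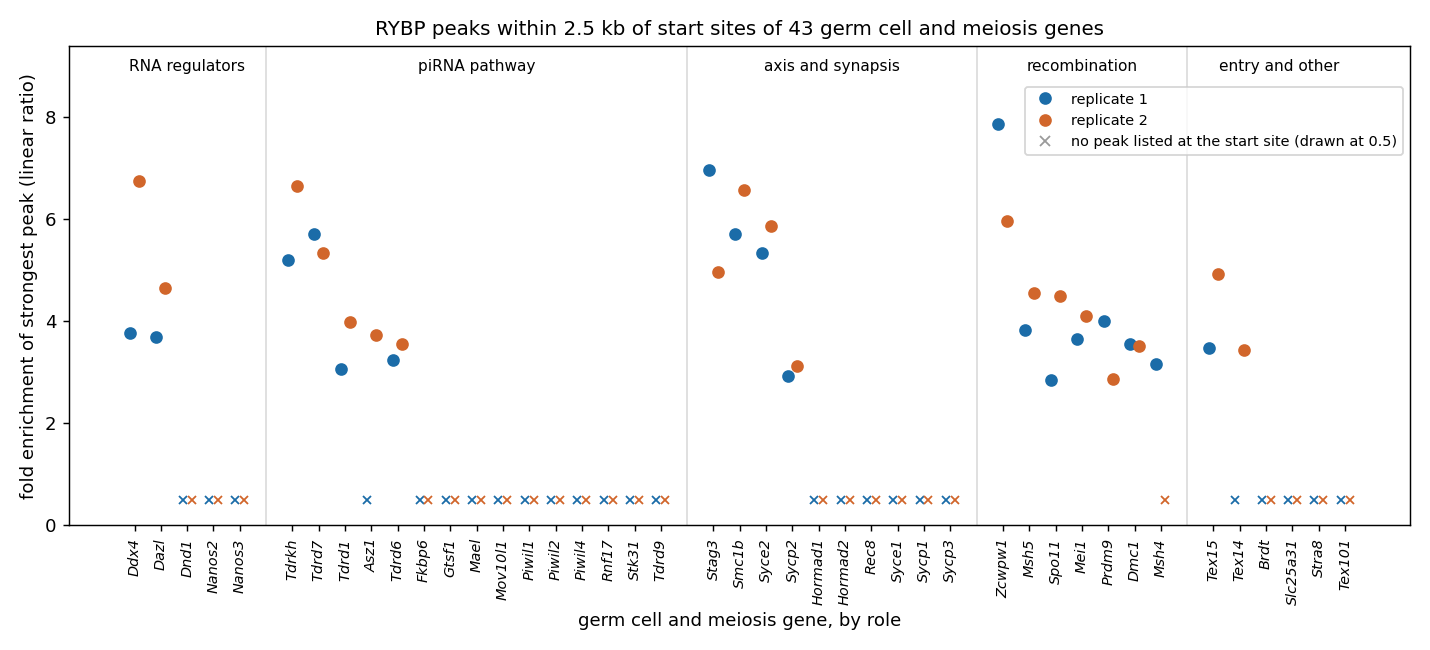
Fold enrichment of the strongest RYBP peak within 2.5 kb of a start site (vertical axis, linear ratio) for each of the 43 genes (horizontal axis, ordered by role), with a point for each replicate and a cross where a list holds no peak. All 7 recombination genes carry a point, and 10 of the 15 piRNA genes carry crosses alone.

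Values of occupied genes are the fold enrichment of the strongest peak in each separately called replicate list, which is the ratio of pile-up to local background given by the authors' caller. Among recombination genes Zcwpw1, a reader of histone marks laid down by PRDM9, had 7.87 in replicate 1, the highest replicate 1 value of the list, and 5.96 in replicate 2 (SD 1.35, n = 2). Among all genes with a peak these values lay at percentile 99.9 in replicate 1 and 96.1 in replicate 2. The region over its start, on chromosome 5 from 138228470 to 138229843 (mm9, as all coordinates here), overlapped an exon of the gene. A separate region found in replicate 2 alone (chromosome 5, 138226498 to 138227550) lay upstream, within the window but closest to the start of the neighbouring gene Mepce.

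Msh5, whose product stabilises crossover intermediates, had values of 3.84 and 4.56 (SD 0.51, n = 2), and Mei1, needed for meiotic DNA breaks, had 3.65 and 4.11 (SD 0.33, n = 2). Dmc1, the meiotic strand-exchange recombinase, had 3.55 and 3.53. The values of these 3 genes lay between percentile 30.7 and percentile 75.0 of genes with a peak, which is the middle of the range. Prdm9, the histone methyltransferase that places recombination hotspots, had 4.02 in replicate 1 but 2.88 in replicate 2, at percentiles 76.1 and 2.22. Its region was narrow, 262 bp on chromosome 17 from 15701002 to 15701263, and began 41 bp downstream of the nearest start.

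The remaining recombination genes were the weakest cases. Msh4, the partner of Msh5, had a peak in replicate 1 alone, at 3.17 and a −log10 q of 1.67, where q is the caller's p-value adjusted for multiple testing. The nearest replicate 2 peak was 66.9 kb away. Spo11, which makes the meiotic breaks, had values of 2.85 and 4.49, with −log10 q of 1.15 and 3.92. The replicate 1 value of q was close to the limit of its list, where the lowest −log10 q was 1.00. The Spo11 region (chromosome 2, 172802610 to 172803574) ended 1769 bp upstream of the nearest start and touched no exon. Spo11 was thus the gene farthest from its start among those counted as occupied, and Nanos2, whose nearest peaks lay 3807 bp (replicate 1) and 3190 bp (replicate 2) away, and Nanos3, at 3659 and 4163 bp, were the nearest of those not counted.

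Among the 10 genes of the chromosome axis and synapsis, 4 had peaks in both replicates. Genes of like CpG density would have given 4.62, and the share over all genes was 37.5%. Smc1b and Stag3 encode meiotic cohesin subunits. Smc1b had values of 5.71 and 6.58 (SD 0.61, n = 2), at percentiles 98.7 and 98.5. Stag3 had 6.97 and 4.97 (SD 1.41, n = 2), at percentiles 99.8 and 85.2. Both regions also covered the start of a neighbour, Ribc2 for Smc1b (chromosome 15, 84961919 to 84962974) and Gpc2 for Stag3 (chromosome 5, 138720958 to 138722461), so occupancy at these sites cannot be assigned to either gene of the pair.

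Syce2, of the central element of the synaptonemal complex, had 5.35 and 5.86 (SD 0.37, n = 2), with a region on chromosome 8 from 87395578 to 87397201 over exon and coding sequence of the gene. Sycp2, of the lateral element, was weak, at 2.94 and 3.13, and its −log10 q was 1.20 and 1.56. The other 6 genes of this group had no peak at a start site. Rec8, a further cohesin subunit, and Sycp1, Sycp3, Syce1, Hormad1 and Hormad2, which build or mark the axis and the synaptonemal complex, were all empty. Genes whose products work in the same structure were therefore on both sides of this split. Genes of like CpG density would also split, giving 4.62 with peaks in both replicates and 7.20 with a region of either.

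In the piRNA pathway 4 of 15 genes had peaks in both replicates, against 6.22 at like CpG density and 37.5% of all genes. Tdrd7, a component of germ granules, had 5.71 and 5.35 (SD 0.26, n = 2), and Tdrkh, which acts in piRNA trimming at mitochondria, had 5.20 and 6.64 (SD 1.02, n = 2). Their percentiles ran from 91.1 to 98.6 over both replicates. The Tdrkh region was the widest of the list, 2861 bp on chromosome 3 from 94216095 to 94218955. The Tdrd7 region lay at an annotated start on chromosome 4 from 45984657 to 45985822, which is not the 5′-most start of the gene. Tdrd1 had values of 3.07 and 3.99, and Tdrd6 had 3.23 and 3.55. All 4 encode Tudor-domain proteins, as do Tdrd9, Rnf17 and Stk31, which were empty. Asz1, an ankyrin-repeat protein of the mitochondrial surface, had a peak of 197 bp in replicate 2 alone, with a value of 3.73. The Argonaute genes of the pathway, Piwil1, Piwil2 and Piwil4, had no peak at a start site in either list, nor had Mael, Mov10l1, Gtsf1 and Fkbp6.

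Ddx4, the germ cell RNA helicase also known as Vasa, had a value of 3.78 in replicate 1 and 6.75 in replicate 2 (SD 2.10, n = 2), the widest spread between replicates in the list. Its region lay on chromosome 13 from 113442040 to 113442789, over exon sequence in an untranslated part. Dazl, an RNA-binding regulator of translation, had 3.69 and 4.65 (SD 0.68, n = 2), with a region on chromosome 17 from 50432195 to 50433164. Nanos2, Nanos3 and Dnd1, which protect germ cell identity through RNA, were empty.

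Tex15, which acts in transposon silencing, had 3.48 and 4.93 (SD 1.02, n = 2). Tex14, a component of germ cell bridges, had a peak in replicate 2 alone (3.45), which ended 689 bp upstream of its nearest start and lay closest to the start of its neighbour Rad51c. Stra8, the inducer of meiotic entry, had no peak at a start site, nor had Brdt, Tex101 and Slc25a31.

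Over the 18 genes with a replicate 1 peak, fold enrichment ran from 2.85 to 7.87 with a median of 3.73, against a median of 3.53 over the 8979 genes with a peak. In replicate 2 the 19 genes ran from 2.88 to 6.75 with a median of 4.56, against 3.90 over 11216 genes. The value was higher in replicate 2 for 12 of the 17 genes found in both, or 70.6%, a share close to the 77.8% of all genes found in both. Peaks were of ordinary width. The strongest peaks had a median width of 858.5 bp (replicate 1) and 722 bp (replicate 2), against 952 and 894 bp over all genes.

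For most occupied genes a peak lay at or near a start, as it did for most genes with a peak overall. A merged region covered an annotated start of 16 of the 43 genes, or 37.2%, against 41.3% of all genes. The nearest peak lay within 100 bp of a start for 17 of 18 genes in replicate 1 (94.4%) and for 17 of 19 in replicate 2 (89.5%). Over all genes with a peak these shares were 78.2% and 86.0%.

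**Figure D2:**
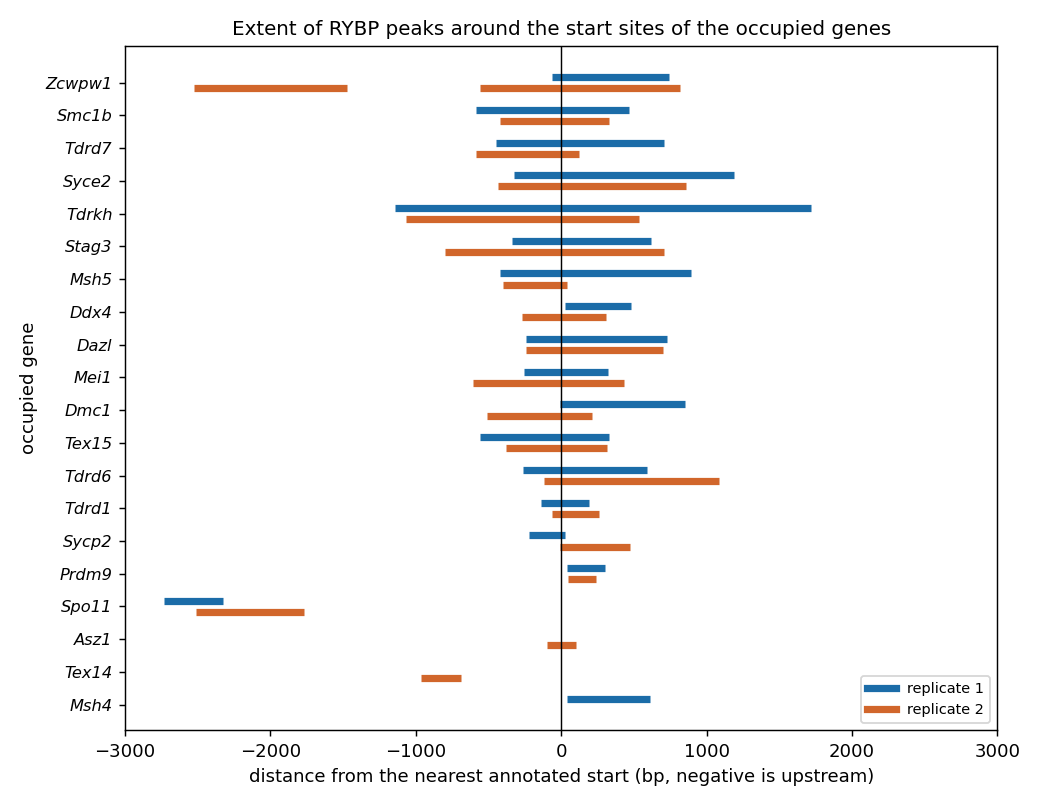
Extent of each RYBP peak (bars, replicate 1 in blue and replicate 2 in orange) for the 20 occupied genes. Genes are ordered by the smaller of the replicate fold enrichments. The horizontal axis is the distance in bp from the annotated start nearest to the midpoint of each peak. The replicates of a gene can therefore be drawn against different starts, as for Tdrd7. The bars of 16 genes reach across the start in at least 1 replicate, and those of Spo11 and Tex14 lie upstream of it.

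CpG density was counted as dinucleotides per 100 bp over 500 bp on each side of the most CpG-rich start of a gene. The occupied genes ran from 3.80 (Asz1) to 9.09 (Tdrd7) with a median of 6.24, and the empty ones from 1.30 (Nanos3) to 6.49 (Sycp1) with a median of 3.90. Over all genes the medians were 6.99 with a region and 1.40 without. All 6 genes of the list at 7 or more were occupied, namely Dazl, Ddx4, Stag3, Tex15, Tdrd6 and Tdrd7. That is near the background, since 89.3% of other genes from 7 to 8, 92.3% from 8 to 9 and 94.5% from 9 to 10 were occupied. All 4 genes under 3 (Nanos2, Nanos3, Gtsf1 and Piwil4) were empty. Of all genes under 3, 10.6% were occupied.

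In between, the ranges of occupied and empty genes overlapped. At 3 or more, 20 of 39 genes of the list were occupied (51.3%), against 81.8% of all such genes. From 3 to 4 CpG per 100 bp 1 of 9 was occupied, against 54.3% of the other protein-coding genes in that range. From 4 to 5 it was 4 of 10, against 67.1%, from 5 to 6 it was 4 of 6, against 75.8%, and from 6 to 7 it was 5 of 8, against 81.7%. For regions of either replicate the list thus lay below its background in each of these ranges. For peaks in both replicates it did so in the lower ranges, with 0 of 9 against 29.7% from 3 to 4 and 2 of 10 against 41.5% from 4 to 5. In the upper ranges it lay near the background, with 4 of 6 against 49.3% from 5 to 6 and 5 of 8 against 54.6% from 6 to 7. Each range holds 6 to 10 genes of the list, so 1 gene moves a share widely, and these directions were not tested.

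Summed over the list, other protein-coding genes of like CpG density would have given 28.9 occupied genes in place of 20. This gap was not the same in both lists. For replicate 1 peaks the count was 18 against 20.8 at like density, and for peaks in both replicates 17 against 18.6. For replicate 2 peaks it was 19 against 26.8, and for peaks in replicate 2 alone 2 against 8.16. Genes of the list were therefore near their background for peaks found in both replicates, and the gap lay largely in peaks that replicate 2 alone contained. Replicate 2 had the longer peak list (18154 peaks against 14794), although by the supplementary information of the study it had fewer mapped reads than replicate 1. The part of depth in the gap was not tested.

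**Figure D3:**
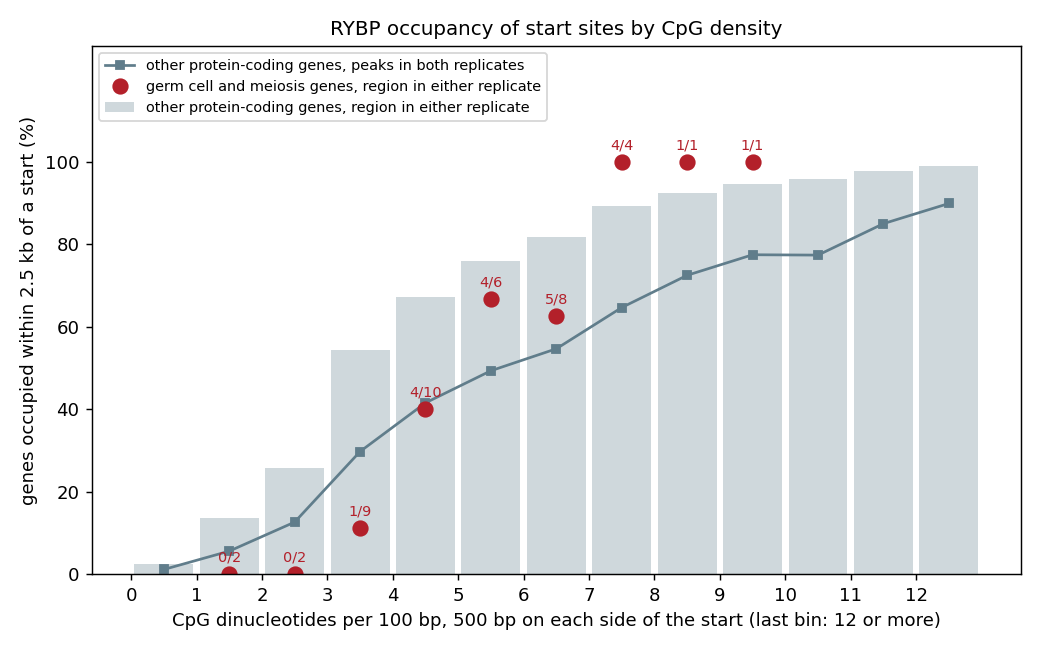
Share of genes with a RYBP region within 2.5 kb of a start (vertical axis, percent) by start-site CpG density (horizontal axis, CpG per 100 bp), for the other protein-coding genes (bars for either replicate, line for both) and for the germ cell and meiosis genes (red points, with counts). From 3 to 7 CpG per 100 bp the red points lie below the bars, with 1 of 9 against 54.3% at 3 to 4.

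The empty genes of CpG density 3 or more were 19, and most were far from any peak. Sycp1, the transverse filament of the synaptonemal complex, had a density of 6.49 and its nearest peaks at 98.6 kb (replicate 1) and 59.1 kb (replicate 2). Mael, at 6.09, lay 15.2 and 15.1 kb from a peak. Slc25a31, a testis carrier of ADP and ATP, had the same density of 6.09 and lay 35.8 and 35.9 kb from one. All 3 were denser in CpG than Zcwpw1 (5.99), Sycp2 (5.79) and Prdm9 (5.19), which had peaks in both replicates.

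Fkbp6 (5.99) lay 14.1 and 20.0 kb from a peak, and Stk31 (5.89) 26.9 and 27.1 kb. Mov10l1, a piRNA helicase (4.80), lay 17.2 and 27.7 kb away. Dnd1 (4.70) lay 5.78 and 30.2 kb away. Hormad1 (4.70), which guards the unsynapsed axis, lay 7.72 and 99.2 kb away. Sycp3 (4.60) lay 44.0 and 43.7 kb from a peak, Syce1 (4.30) 47.2 and 68.1 kb, and Brdt (4.10), a testis bromodomain protein, 41.5 and 41.4 kb.

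At lower densities, Piwil1 (3.90) lay 102.9 and 9.18 kb from a peak, Stra8 (3.70) 138.9 and 9.36 kb, and Rnf17 (3.70) 37.5 and 37.6 kb. Piwil2 (3.60) lay 13.8 and 14.0 kb away, Hormad2 (3.50) 157.5 and 153.9 kb, and Rec8 (3.20) 17.0 and 17.3 kb. Tex101 (3.20), a germ cell surface protein, lay 32.8 and 6.48 kb away, and Tdrd9 (3.10), a Tudor-domain helicase, 61.8 and 33.8 kb. For most of these genes no peak lay near the window. Over the 23 empty genes the distance to the nearest peak had a median of 32.8 kb in replicate 1 and 27.7 kb in replicate 2, and a lowest value of 3.66 and 3.19 kb. A merged region lay in the gene body of 3 of them, Piwil1, Mov10l1 and Tdrd9.

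The count of occupied genes moved with the rule, and so did its background. It was 17, against 36.8% of all genes, for merged regions found in both replicates and 18, against 44.7%, where −log10 q had to reach 2. Where the fold enrichment had to reach 3 it was 20, against 50.7%. With 1 kb on each side of the start it was 19, against 51.8%, and with 5 kb it was 22, against 55.3%, as Nanos2 and Nanos3 then entered. With the 5′-most start alone it was 19, against 51.7%, since Tdrd7 then dropped out, and with an overlap of at least 200 bp it was 19, against 52.5%.

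The start of another protein-coding gene lay within 2.5 kb for 4 of the 20 occupied genes (Smc1b, Stag3, Zcwpw1 and Tex14) and for 0 of the 23 empty ones, against 14.9% of all genes. Over all genes the share was 20.2% with a region and 8.94% without, so the occupied genes of the list lay at the general share. Among the 39 genes without such a neighbour 16 were occupied, against 50.1% of all genes without one. Genes of like CpG density and likewise without a neighbour would have given 25.9.

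The promoters of the strongest occupied genes and of the most CpG-dense empty ones are shown so that their letters can be compared. Each runs 5′ to 3′ on the strand of the gene, from 250 bp before the start to 50 bp from it, in the NCBIM37 genome, which is mm9. Capitals mark letters searched on both strands, namely CACGTG, an E-box of the kind bound by MAX and MGA, and GGCGGGA and GCGGGAA, which share 6 letters and belong to the type bound by E2F factors. AGGTGTGA, of the T-box type, was also searched. Ddx4 was added after its values were seen, as an occupied gene that holds both an E-box and E2F letters.
Zcwpw1 (chr5:138228776-138229075, + strand): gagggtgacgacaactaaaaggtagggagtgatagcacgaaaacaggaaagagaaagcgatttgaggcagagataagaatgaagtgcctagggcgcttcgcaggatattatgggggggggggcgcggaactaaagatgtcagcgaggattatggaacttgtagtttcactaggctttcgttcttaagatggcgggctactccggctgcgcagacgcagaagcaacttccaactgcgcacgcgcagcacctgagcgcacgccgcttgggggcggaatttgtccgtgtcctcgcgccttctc
Smc1b (chr15:84962338-84962637, - strand): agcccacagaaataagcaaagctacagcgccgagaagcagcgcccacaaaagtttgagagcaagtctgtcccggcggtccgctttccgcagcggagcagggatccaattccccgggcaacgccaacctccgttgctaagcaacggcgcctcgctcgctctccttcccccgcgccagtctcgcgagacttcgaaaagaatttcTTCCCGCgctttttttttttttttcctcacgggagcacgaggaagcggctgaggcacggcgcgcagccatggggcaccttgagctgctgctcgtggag
Tdrd7 (chr4:45984855-45985154, + strand): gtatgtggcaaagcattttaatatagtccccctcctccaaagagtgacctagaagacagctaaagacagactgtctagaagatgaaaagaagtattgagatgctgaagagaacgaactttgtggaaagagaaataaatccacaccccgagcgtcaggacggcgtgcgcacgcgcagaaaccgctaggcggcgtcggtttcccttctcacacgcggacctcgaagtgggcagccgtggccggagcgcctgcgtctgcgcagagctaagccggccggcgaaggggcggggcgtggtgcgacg
Syce2 (chr8:87395760-87396059, + strand): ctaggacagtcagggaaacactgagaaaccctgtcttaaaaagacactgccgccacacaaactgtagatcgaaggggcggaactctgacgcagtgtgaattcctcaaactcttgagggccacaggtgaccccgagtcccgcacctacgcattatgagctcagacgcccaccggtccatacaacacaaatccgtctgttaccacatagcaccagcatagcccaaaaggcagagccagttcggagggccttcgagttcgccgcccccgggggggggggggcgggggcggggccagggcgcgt
Ddx4 (chr13:113442469-113442768, - strand): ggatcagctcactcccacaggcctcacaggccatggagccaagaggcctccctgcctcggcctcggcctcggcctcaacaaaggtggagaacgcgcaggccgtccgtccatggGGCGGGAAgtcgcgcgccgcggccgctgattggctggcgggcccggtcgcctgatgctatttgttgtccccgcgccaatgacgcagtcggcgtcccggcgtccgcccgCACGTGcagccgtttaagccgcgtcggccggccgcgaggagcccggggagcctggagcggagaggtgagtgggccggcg
Sycp1 (chr3:102739974-102740273, - strand): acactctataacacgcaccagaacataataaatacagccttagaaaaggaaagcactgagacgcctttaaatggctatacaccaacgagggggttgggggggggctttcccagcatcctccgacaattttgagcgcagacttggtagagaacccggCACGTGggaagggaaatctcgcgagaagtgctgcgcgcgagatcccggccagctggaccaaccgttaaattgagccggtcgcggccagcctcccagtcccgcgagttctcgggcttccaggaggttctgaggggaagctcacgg
Mael (chr1:168168826-168169125, - strand): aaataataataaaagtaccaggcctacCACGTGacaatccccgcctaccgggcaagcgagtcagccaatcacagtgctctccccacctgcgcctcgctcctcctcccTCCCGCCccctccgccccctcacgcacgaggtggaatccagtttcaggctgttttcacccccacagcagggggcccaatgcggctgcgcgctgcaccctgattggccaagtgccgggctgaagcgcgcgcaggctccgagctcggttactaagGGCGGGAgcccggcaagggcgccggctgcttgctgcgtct
Slc25a31 (chr3:40512527-40512826, + strand): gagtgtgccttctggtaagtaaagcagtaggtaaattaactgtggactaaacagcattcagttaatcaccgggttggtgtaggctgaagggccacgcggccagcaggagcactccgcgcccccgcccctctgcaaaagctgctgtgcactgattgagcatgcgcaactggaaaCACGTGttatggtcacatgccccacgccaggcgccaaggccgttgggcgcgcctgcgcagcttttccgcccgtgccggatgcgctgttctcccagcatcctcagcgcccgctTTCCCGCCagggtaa

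The first 5 belong to occupied genes and the last 3 to empty ones. All 3 empty promoters hold an E-box, and Mael and Slc25a31 hold E2F letters as well. Of the 4 strongest occupied promoters, 3 hold none of the searched letters, and Smc1b holds GCGGGAA on its reverse strand. These windows carry from 19 (Syce2) to 38 (Ddx4) CpG dinucleotides in 300 bp, and the empty ones from 21 to 24.

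Over the whole list the E-box letters were frequent. They were present in 16 of 43 promoters (37.2%), against 7.94% of all protein-coding promoters of that length and 4.08 promoters at like CpG density. By role they stood in 8 of 15 piRNA promoters, among them Mael, Mov10l1, Piwil1, Stk31 and Tdrd1, against 1.36 at like CpG density. The counts were 3 of 10 for axis promoters (against 0.98) and 1 of 7 for recombination promoters (against 0.73). For RNA regulators the count was 2 of 5 (against 0.44), and for meiotic entry and other genes 2 of 6 (against 0.56). The E-box was more frequent where RYBP was not called. It was present in 12 of the 23 empty promoters (52.2%, against 1.95 at like CpG density) and in 4 of the 20 occupied ones (Dazl, Ddx4, Mei1 and Tdrd1, against 2.13). Over all genes the E-box was present in 10.1% of promoters that had a region and in 5.52% of those that had none. Those groups also differ in CpG density (medians 6.99 and 1.40). At like density, genes with a region would have given 2.12 for the occupied promoters, and genes without a region 1.92 for the empty ones. Both values are close to the 2.13 and 1.95 from genes of either kind. The contrast within the list depended on the window. With 250 bp on both sides of the start, the E-box was present in 13 of 23 empty promoters, against 2.74 at like CpG density. It was then present in 9 of 20 occupied promoters, against 2.76. Over all genes the share in that window was 10.5%.

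E2F letters behaved differently according to the version searched. GGCGGGA was present in 8 of 43 promoters (18.6%), against 15.8% of all promoters and 7.98 at like CpG density. The shifted version GCGGGAA was present in 10 (23.3%), against 6.22% of all promoters and 3.30 at like density. Of these 10, 7 were occupied (Dazl, Ddx4, Msh5, Prdm9, Smc1b, Tex14 and Tex15), out of 20 occupied promoters, and 3 were empty (Hormad1, Slc25a31 and Sycp3), out of 23. At like CpG density 1.84 occupied and 1.46 empty promoters would have held it. Over all genes these letters were present in 9.30% of promoters that had a region and in 2.69% of those that had none. Those groups also differ in CpG density (medians 6.99 and 1.40). At like density, genes with a region would have given 1.82 for the occupied promoters, and genes without a region 1.43 for the empty ones. Both values are close to the 1.84 and 1.46 from genes of either kind. Letters of the T-box type were present in 2 promoters, those of Brdt and Sycp3, against 1.04% of all promoters. Such matches are letters in a window and were not tested as binding sites.

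**Figure D4:**
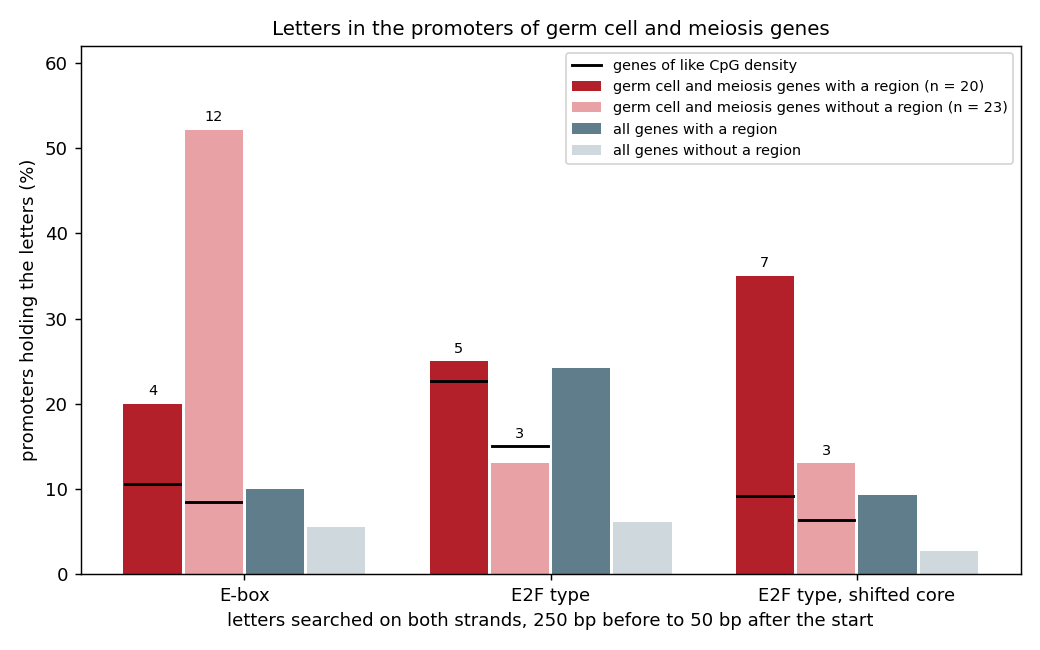
Share of promoters holding each set of letters (vertical axis, percent) for the occupied and empty germ cell and meiosis genes (red and pink bars, with counts) and for all protein-coding genes with and without a region (grey bars), with black lines for genes of like CpG density. The E-box bar of the empty genes reaches 52.2% against 20.0% for the occupied ones, and the bars of the shifted E2F letters are 35.0% and 13.0%.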

How the data were processed

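The 2 RYBP ChIP samples and 2 inputs were grouped by their labels. According to the methods of the study and the labels, reads were paired-end, alignment to mm9 was done with Bowtie 1.1.2b, duplicates were removed, and broad peaks were called per replicate with MACS2 2.0.10. For each peak the authors deposited a fold enrichment (a linear ratio), −log10 of the p-value and of the q-value, and a score of 10 times the −log10 q rounded down. The deposited merged list has positions and no values. It equals the union of both lists once the replicate 2 starts are moved by 1 bp (22409 of 22409 regions), so printed starts are uncertain by 1 bp. The lists carry no depth, and the mapped read totals that the study states, which are higher for replicate 1 than for replicate 2, were not used in any value.

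From these, overlaps of at least 1 bp with windows of 2.5 kb on each side of all starts of protein-coding transcripts (GENCODE, mm9) were computed in Python 3.11.15. Percentiles rank a gene among all genes with a peak in that replicate. Genes of like CpG density share a bin of 1 CpG per 100 bp, and their shares were summed over the list. Sequences and CpG came from the NCBIM37 genome. With 1 condition, 2 replicates and peaks as the values, no test was made, and genes are not replicates. The code was tested on simulated data.

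The genes and lists were chosen with earlier results of these data known. Full values were given for the 10 genes found in both replicates with the largest smaller fold enrichment, for those in 1 replicate alone, for empty genes of 3 or more CpG per 100 bp, and for regions shared with a neighbour. Alternatives were other windows, thresholds, starts, overlaps, CpG bins and motif letters. Promoters of the RefSeq table (GRCm38.p6), the wider window for the E-box and the genes without a neighbour were added after the data were seen.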

Additional observations from a re-analysis of the deposited data

How the results depend on the processing

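The count of 20 occupied genes ran from 16 to 22 over all alternatives. It was 18 to 19 when either replicate was left out, 17 with regions found in both replicates, 18 where −log10 q reached 2, 20 where the fold enrichment reached 3, 19 with 1 kb on each side, 22 with 5 kb and 16 where the region had to cover the start. In these runs 413 of 430 states of single genes were as in the report, and 9 genes changed in some setting (Asz1, Msh4, Nanos2, Nanos3, Prdm9, Spo11, Sycp2, Tdrd7 and Tex14). The count found in both replicates was 12 where peaks had to cover 50% of each other and 13 at −log10 q of at least 2. Shares of all genes under these settings are not given, so these lower counts have no background beside them. The 28.9 genes at like CpG density ran from 29.0 to 29.7 with other bins, other flanks, autosomes or the ratio of observed to expected CpG, but became 17.98 with merged regions found in both replicates, beside 17 occupied genes. GGCGGGA was present in 14 promoters with 250 bp on each side, beside 11.7 at like CpG density. The E-box was present in 22 promoters in that window, beside 5.50 at like CpG density. It was present in 15 of the 37 genes with a promoter in the RefSeq table, against 9.34% of all genes there. No paired analysis was possible because no result came from a test and values of the inputs, which carry the same numbers, were not used here. Read depth was not used, so a missing peak says only that none was called.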

Other observations

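Other early germ cell genes and spermatid genes, outside the 43, were occupied about as often as genes of like CpG density. Among 27 further early germ cell and meiosis genes found in the annotation, of 28 listed, 16 were occupied, against 17.3 at like density, and 14 had peaks in both replicates, against 11.7. By the smaller of both replicate values the strongest were Boll, an RNA-binding relative of Dazl (5.89 in replicate 1 and 5.59 in replicate 2), Cpeb1, a regulator of polyadenylation (5.27 and 6.07), and Pld6, a mitochondrial enzyme of the piRNA pathway (5.04 and 5.20). An E-box was present in 7 of the 27 promoters (25.9%), against 9.26% at like density. Among 26 spermatid genes, whose starts are mostly poor in CpG, 7 were occupied, against 7.66 at like density, and 4 had peaks in both replicates, against 4.68. Their strongest by the same measure were Zpbp2 (5.30 and 4.88), Tssk6 (4.51 and 5.13) and Tnp2 (3.56 and 5.38). An E-box was present in 0 of the 26 promoters, against 1.57 at like density.

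Genes listed for primordial germ cell specification, some of which are also active in pluripotent cells, were occupied at 8 of 9, against 5.40 at like density. Peaks of both replicates were present at 7, against 3.66. Sox2 had values of 4.54 and 5.81, Kit 4.09 and 5.60, and Tfap2c (listed under its older symbol) 4.05 and 5.19, whereas Dppa3 had no peak at a start site. Of 14 genes for subunits of PRC1.6, 12 were occupied, against 13.0 at like density, and all 12 had peaks in both replicates, against 10.6. E2f6 was the strongest (6.19 and 7.73), followed by Rybp itself (5.95 and 6.24) and Hdac2 (5.55 and 5.90), and L3mbtl2 and Hdac1 were empty. No test was made on any of these lists.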
